A study of Bos taurus with 12 samples.

Results

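The genes described here are immune genes of cattle, read in sperm DNA: 41 Ensembl genes whose full name holds a word such as interleukin, interferon, chemokine, T cell, B cell or leukocyte, or a CD number followed by the word molecule, with zinc finger genes left out. A gene is a member when at least 1 listed locus on chromosomes 1 to 29, outside the first 1 Mb of chromosome 21, has that gene's exon, coding sequence, untranslated region or intron as its closest feature at no more than 10 kb. Of 2459 genes that met the same position limits, 2221 had a full name and 41 were immune genes. In the table of single CpG sites 37 of them had 56 sites, out of 4054 sites near any gene and 17730 listed in all. In the table of 500 bp windows, called tiles below, 5 of them had 30 tiles, out of 1784 near any gene and 7290 listed. Interleukin 5 receptor subunit alpha was the 1 gene in both tables. Chromosomes 2, 3, 4, 12, 23 and 27 for sites, and 12, 23 and 27 for tiles, were not analysed here. All counts and ranks leave them out. On the chromosomes used, the words toll like receptor, IKAROS and tumor necrosis factor found no member.

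The samples were sperm DNA of bulls, 6 labelled low daughter fertility and 6 labelled high daughter fertility, profiled over the whole genome by enzymatic methylation sequencing, a method that converts unmethylated cytosines with enzymes. The labels give no breed, age, treatment or batch. The values are those of the authors' deposited tables, which compare the groups in percentage points of methylation and give a p-value and a q-value for each locus. Which group was subtracted is not stated, so a difference is called positive or negative as listed and neither sign is assigned to a group. Per-sample methylation and read depth were not analysed here, so no value below has a spread between samples and no test between samples was run.

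Immune genes are commonly used to look for blood cells in a sperm sample, because semen can carry leukocytes and epithelial cells and because genes that leukocytes use are often methylated in sperm and unmethylated in leukocytes. Cytokines and chemokines are the secreted signals of this system. Their receptors receive the signals, and adaptors and transcription factors pass them to the nucleus. The CD surface molecules are proteins of several kinds. The names cover more than leukocytes, since CD9, CD46 and CD47 are found on many cell types, T cell leukemia homeobox 3 is a transcription factor of neurons and leukocyte cell derived chemotaxin 2 is made mainly in the liver. The tables hold differences and not methylation levels, so how much somatic DNA either group carried was not measured. In DNA of whole samples, a different methylation level of the sperm and a different share of other cells cannot be told apart.

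At an authors' q below 0.05 and a difference of at least 10 points, the rule for a call used throughout, 3 of the 56 immune sites were called, which is 5.36%. Over all listed sites 5.94% were called, over all sites near a gene on the same chromosomes 3.77%, and over sites near other named genes 3.19%. The share for immune genes thus lay between the backgrounds, and 3 sites are too few to set it apart from them. By gene, 3 of 37 immune genes (8.11%) had a called site, against 4.34% of other named genes. The called sites lay near BANK1 and CD96 and inside CD163 molecule-like 1, and 2 of them were negative (3.57% of the immune sites, with 4.78% of all listed sites and 1.69% of sites near other named genes) and 1 positive (1.79%, with 1.16% and 1.50%). At an authors' q below 0.05 whatever the difference there were 4 immune sites (7.14%), with 8.11% of all listed sites and 4.92% of sites near other named genes. Among the 30 immune tiles 0 were called. The background was 2.78% of all listed tiles, 2.02% of tiles near a gene and 1.31% of tiles near other named genes. The immune tiles overlap and merge into 6 regions, and 1 gene holds 18 of the tiles. They are not separate observations and are too few to read against these shares. Of these 30 tiles 18 (60.0%) had an unadjusted p below 0.05 in the authors' test. So had 65.8% of all listed tiles, 59.9% of tiles near a gene and 53.4% of tiles near other named genes.

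**Figure D1:**
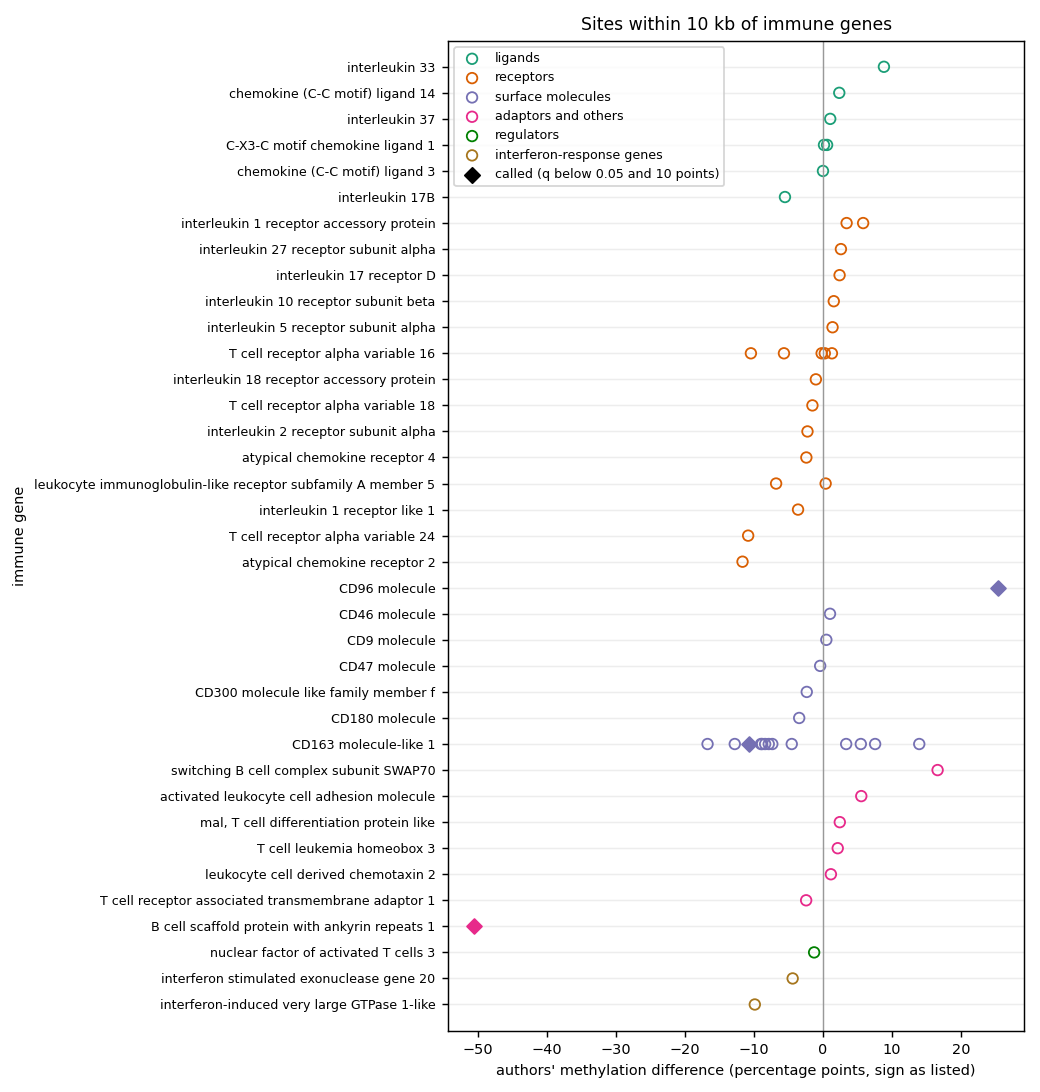
Authors' methylation difference in percentage points (horizontal axis) at each of the 56 sites within 10 kb of an immune gene, 1 row for each of the 37 genes, coloured by role; filled diamonds are called sites. Most genes had 1 site close to 0, and the called sites stand at -50.6 points for BANK1, 25.4 points for CD96 and -10.8 points for CD163 molecule-like 1.

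The site near BANK1 had the largest difference of any immune gene. BANK1 (ENSBTAG00000015297) encodes a scaffold that passes signals of the B cell receptor. Its site on chromosome 6, position 23018619, minus strand, stood at -50.6 points (p = 1.16e-11, q = 1.29e-09), per the authors' deposited table. By size it was the second of all 17730 listed sites and the first of the 4054 near a gene on the chromosomes used. The site is annotated to the promoter, 2478 bp from the 5′ untranslated region, and the gene runs on the minus strand. It stood alone: 0 other listed sites lay within 100 kb, the closest was 141465 bp away at 2.63 points (q = 0.249), per the authors' deposited table, and the closest listed tile was 1001719 bp away. No neighbouring CpG was therefore listed against which this value could be read.

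CD96 was the called immune gene with a positive difference. CD96 (ENSBTAG00000014441) encodes an adhesion receptor of T cells and natural killer cells. A plus-strand site on chromosome 1, position 56298949, stood at 25.4 points (p = 5.27e-05, q = 0.00194), per the authors' deposited table. It is annotated to the promoter, 7231 bp from an exon, and ranked 18 among the positive sites near a gene and 37 by size in either direction. This site was isolated as well, with 0 other listed sites within 100 kb. The closest one, 140783 bp away in an intron of another gene, had the opposite sign at -31.3 points (q = 1.76e-06), per the authors' deposited table.

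**Figure D2:**
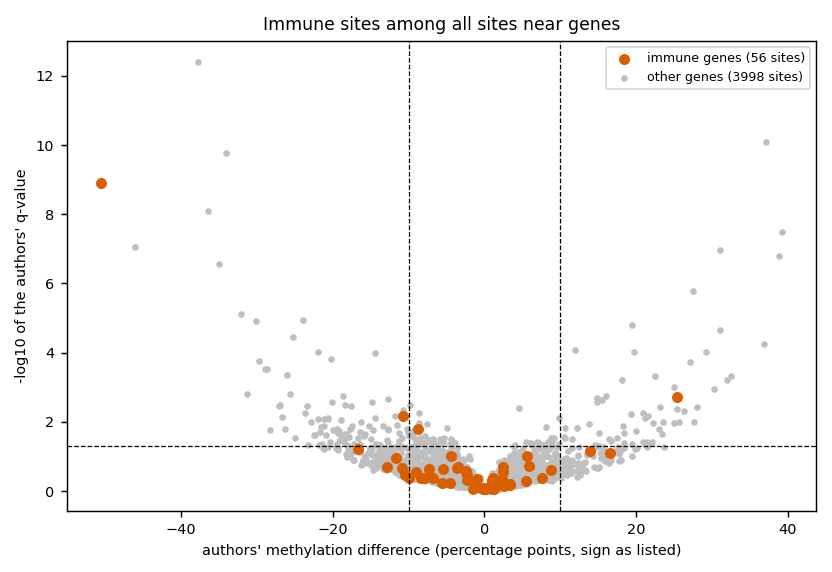
Authors' difference in percentage points (horizontal axis) against -log10 of the authors' q-value (vertical axis) for the 56 immune sites (orange) and the other sites near a gene on the same chromosomes (grey); dashed lines mark q = 0.05 and 10 points. The BANK1 site at -50.6 points is the leftmost point, and most immune sites lie below the q line.

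CD163 molecule-like 1 was the immune gene with the most sites and had its differences on both sides of 0. The gene (ENSBTAG00000054245) matches CD163L1 in the RefSeq gene table, with WC1 among its other names. WC1 proteins are scavenger receptor family molecules on gamma delta T cells of ruminants and come from a cluster of similar genes, of which that table holds 6 on chromosome 5 under this name or synonym. Whether reads of similar copies were exchanged between them was not tested, and values in this gene are given with that limit. Its 13 sites spanned 26945 bp of chromosome 5, all inside the gene, 9 negative and 4 positive, from -16.7 to 13.96 points with a median of -7.86 points in the authors' deposited table. Of these sites 11 were on the minus strand.

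The coding sequence sites of CD163 molecule-like 1 were all negative. At position 103025816 the difference was -16.7 points (q = 0.0602), which did not pass in the authors' deposited table. At position 103036532 it was -10.8 points (p = 0.000116, q = 0.00674), the called site in the authors' deposited table. Only 30 bp away, position 103036562 stood at -8.82 points (q = 0.0162), per the authors' deposited table, past the q threshold but short of 10 points. The 10 intronic sites were mixed, 6 negative and 4 positive, and none had a q below 0.05, although 1 had an unadjusted p below 0.05. The highest of them was 13.96 points (q = 0.0705) at position 103035840 in the authors' deposited table. An intronic site 89 bp from it stood at -8.39 points (q = 0.413), per the authors' deposited table, so neighbouring CpGs of this gene had opposite signs.

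**Figure D3:**
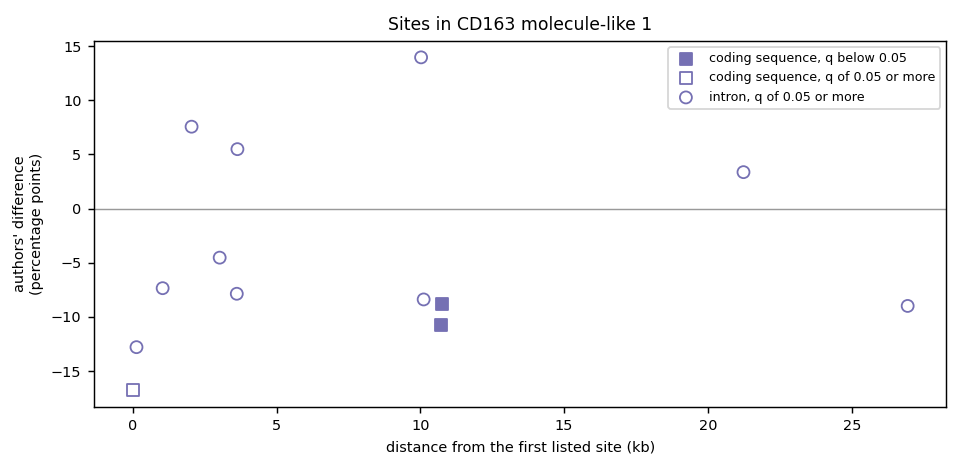
Authors' difference in percentage points (vertical axis) at the 13 sites of CD163 molecule-like 1 by distance from the first listed site in kb (horizontal axis); squares are coding sequence, circles introns, and filled symbols have q below 0.05. The 3 coding sequence sites lie between -16.7 and -8.82 points, and the introns hold both signs.

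Most ligand sites stood within 3 points of 0. The 6 ligand genes had 7 sites between -5.51 and 8.84 points with a median of 0.60 points. Of these 7 sites 0 had a q below 0.05 or an unadjusted p below 0.05 in the authors' deposited table. Among sites near other named genes, 4.92% had such a q and 19.5% such a p. The 7 sites are too few to set ligands apart from them. Interleukin 33, an alarmin released by damaged barrier cells, was the highest at 8.84 points (q = 0.246), 2953 bp downstream of an exon. Interleukin 17B was the lowest at -5.51 points (q = 0.237), per the authors' deposited table. The chemokines, which draw leukocytes to tissue, lay close to 0. In the authors' deposited table chemokine (C-C motif) ligand 14 stood at 2.36 points, chemokine (C-C motif) ligand 3 at 0 points, and C-X3-C motif chemokine ligand 1, a membrane-bound chemokine, at 0.60 and 0.15 points at its 2 sites. Interleukin 37, a cytokine that dampens inflammation in humans, stood at 1.05 points (q = 0.838), per the authors' deposited table.

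The receptors had values of both signs. The 14 receptor genes had 20 sites, 11 negative and 9 positive, from -11.7 to 5.83 points with a median of -0.61 points, and 3 of them had an unadjusted p below 0.05 in the authors' deposited table. Called were 0 of these 20 sites, a number at which the 3.19% of sites near other named genes would give few calls or none. The lowest was atypical chemokine receptor 2, a scavenger of inflammatory chemokines, at -11.7 points (p = 0.0101, q = 0.108), 224 bp downstream of its 3′ untranslated region on chromosome 22 in the authors' deposited table. Its nearest listed neighbour was 203022 bp away. Atypical chemokine receptor 4, which clears homeostatic chemokines, stood at -2.41 points (q = 0.256) in its coding sequence in the authors' deposited table. The interleukin 1 receptor accessory protein, the shared second chain of several interleukin 1 family receptors, had both of its sites positive, at 5.83 points (q = 0.190) in an intron and 3.43 points (q = 0.659), per the authors' deposited table. Interleukin 1 receptor like 1, the receptor of interleukin 33, stood at -3.61 points (q = 0.217), per the authors' deposited table.

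The remaining interleukin receptors were within 3 points of 0. Interleukin 2 receptor subunit alpha, a marker of activated and regulatory T cells, stood at -2.25 points (q = 0.351), per the authors' deposited table. Interleukin 18 receptor accessory protein stood at -1.03 points, and interleukin 10 receptor subunit beta at 1.57 points in the authors' deposited table. Interleukin 5 receptor subunit alpha, the eosinophil receptor chain, stood at 1.39 points, interleukin 17 receptor D at 2.41 points and interleukin 27 receptor subunit alpha at 2.60 points in the authors' deposited table. Leukocyte immunoglobulin-like receptor subfamily A member 5 belongs to a family of similar genes, and its 2 sites on chromosome 18 stood at 0.39 and -6.80 points (q = 0.831 and 0.415), per the authors' deposited table.

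The variable segments of the T cell receptor alpha chain form a family of similar segments that T cells rearrange and sperm do not. Their 3 members had 7 sites on chromosome 10, 5 negative and 2 positive, from -10.8 to 1.30 points, and 0 were called. Near other named genes 3.19% of sites were called and 55.5% of the sites not at 0 were negative. The 7 sites are too few to set this family apart. T cell receptor alpha variable 24 stood at -10.8 points (p = 0.0356, q = 0.218), 870 bp from its coding sequence on the promoter side in the authors' deposited table. T cell receptor alpha variable 16 had 5 sites, with -10.5 points (q = 0.335) and -5.66 points (q = 0.573) as the lowest and -0.19, 0.26 and 1.30 points at the others in the authors' deposited table. T cell receptor alpha variable 18 stood at -1.53 points (q = 0.857), per the authors' deposited table. The sites within T cell receptor alpha variable 16 were thus uneven. Of the 7 sites of the family 0 had a q below 0.05, and 1 had an unadjusted p below 0.05.

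Apart from CD96 and CD163 molecule-like 1, surface molecules were close to 0. The values were 1.02 points for CD46, a complement regulator also found on the sperm acrosome, 0.49 points for the tetraspanin CD9 and -0.41 points for CD47, which protects cells from phagocytosis in the authors' deposited table. CD300 molecule like family member f, an inhibitory receptor of myeloid cells, stood at -2.35 points, and CD180, a relative of the toll like receptors on B cells, at -3.45 points (q = 0.200), per the authors' deposited table.

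Of the adaptors and other genes, switching B cell complex subunit SWAP70 came closest to a call after BANK1. SWAP70, a regulator of actin in B cells, stood at 16.6 points (p = 0.00409, q = 0.0766), 8032 bp downstream of an exon on chromosome 15 in the authors' deposited table. No other listed site lay within 100 kb of it. Activated leukocyte cell adhesion molecule had an intronic site at 5.56 points (p = 0.0133, q = 0.0986), per the authors' deposited table. The others had smaller values. T cell receptor associated transmembrane adaptor 1, which steadies the T cell receptor complex, stood at -2.44 points, and mal, T cell differentiation protein like, at 2.44 points in the authors' deposited table. T cell leukemia homeobox 3 stood at 2.14 points and leukocyte cell derived chemotaxin 2 at 1.15 points in the authors' deposited table. The regulator nuclear factor of activated T cells 3 stood at -1.28 points (q = 0.714), per the authors' deposited table. Both interferon-response genes were negative, interferon stimulated exonuclease gene 20 at -4.40 points (p = 0.0181, q = 0.0957) and interferon-induced very large GTPase 1-like at -9.89 points (q = 0.403), per the authors' deposited table.

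The median absolute difference was 3.44 points over the 56 immune sites and 2.35 points over the 3194 sites near other named genes. Without CD163 molecule-like 1, a choice made after its values were seen, it was 2.41 points over 43 sites. The share of sites at 10 points or more was 17.9% for immune genes (10 sites), 13.95% without that gene (6 sites), 7.42% for other named genes and 12.1% over all listed sites. With each gene given its largest site, the medians were 2.44 points over 37 immune genes and 2.72 points over 1865 other named genes. The signs were close to even, with 29 negative and 26 positive immune sites and 1 at 0, which makes 52.7% negative, against 55.5% for other named genes. These figures describe the lists, and no test was run on them.

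**Figure D4:**
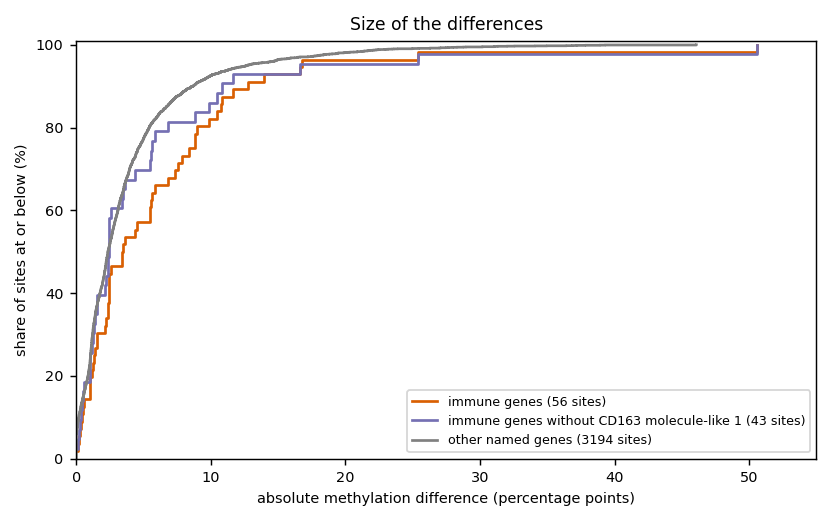
Cumulative share of sites in percent (vertical axis) by absolute difference in percentage points (horizontal axis) for immune genes (orange), immune genes without CD163 molecule-like 1 (purple) and other named genes (grey). The purple line follows the grey one at small differences, and the medians are 3.44, 2.41 and 2.35 points.

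By position, 28 of the 56 immune sites (50%) lay inside a gene feature, 13 of them in CD163 molecule-like 1, against 69.3% of sites near other named genes, and downstream of one were 20 (35.7%), against 15.4%. The promoter class held 8 (14.3%), against 15.3%. Of these 8, 2 were called, those of BANK1 and CD96. Near other named genes 29 of 488 promoter sites were called, and 8 sites are too few for a comparison. Most immune genes rested on a single CpG, since 32 of 37 had 1 listed site (86.5%), against 72.9% of other named genes. For 0 of the 56 sites was the other strand of the same CpG listed, and 0 lay inside a listed tile, so no value here has a second measurement.

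Tiles near immune genes were led by a T cell receptor beta segment. T cell receptor beta variable 5-1 (ENSBTAG00000051786), a member of a large segment family, had 18 tiles over 3200 bp downstream of its 3′ untranslated region on chromosome 4, 14 positive and 4 negative. The 7 nearest tiles, starting 377 to 977 bp from the gene, all had positive values between 5.53 and 7.79 points with q of 1.29e-07 or less, per the authors' deposited table. From the nearest outward they stood at 7.37, 7.37, 7.79, 7.22, 7.08, 5.53 and 5.53 points in the authors' deposited table. They overlap each other and form 1 stretch, and 4 of them came as pairs with the same difference and p, so they are not separate observations. The highest, at positions 105604501 to 105605000, stood at 7.79 points (p = 1.27e-08, q = 1.41e-08), per the authors' deposited table. It ranked 3 among positive tiles near a gene. The highest positive tile of all other named genes on these chromosomes stood at 7.21 points in the authors' deposited table. By size in either direction it was not among the largest. The T cell receptor tile ranked 80 of the 1784 tiles near a gene, and tiles of other named genes reached -20.9 points in the authors' deposited table.

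Farther from the segment the tile differences were small and of both signs. The next tile, starting 1077 bp from the gene, stood at 1.03 points (q = 0.0875), per the authors' deposited table. The 11 tiles from there on ranged from -2.27 to 2.08 points with a median of 0.89 points, and 5 of them had q below 0.05, at 1.61, 1.89, 1.83, -2.27 and 2.08 points in the authors' deposited table. The unadjusted p of the 1.83-point tile was 0.0953 in the authors' deposited table. The farthest 3, from 2877 bp on, were all negative, between -1.58 and -0.22 points, with q of 0.0557 or more, per the authors' deposited table. Near any gene 24 tiles reached 5 points in the positive direction, from 7 genes. Of these tiles 7 belonged to this segment, as overlapping tiles of 1 stretch. In the negative direction 209 tiles from 32 genes reached 5 points, and 0 of these were near an immune gene. Immune genes were 5 of the 458 genes with a tile within 10 kb, too few to read either count.

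The other tile genes had differences under 2 points, some of them with small q. CD247, the zeta chain that carries the signal of the T cell receptor, had 4 overlapping intronic tiles on chromosome 3, all negative at -0.99, -0.99, -1.54 and -1.47 points with q between 3.62e-05 and 0.00658 in the authors' deposited table. Interleukin 6 receptor had 4 tiles at the start of the gene on chromosome 3. The 3 nearest the 5′ end of the gene stood at 0.78, 0.78 and 0.74 points with q of 0.00109, 0.00247 and 0.0153, and the 1 starting 211 bp away at 0.01 points (q = 0.429), per the authors' deposited table. Interleukin 7, a growth factor of lymphocytes, had 2 intronic tiles at 0.10 and 0.20 points (q = 0.0767 and 0.0350), and the unadjusted p of the second was 0.215 in the authors' deposited table. Interleukin 5 receptor subunit alpha had 2 tiles downstream at -0.32 and -0.12 points (q = 0.357 and 0.503), per the authors' deposited table. In all 20 of the 30 immune tiles (66.7%) had q below 0.05, next to 71.8% of all listed tiles and 61.0% of tiles near other named genes, so a small q was as common elsewhere.

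**Figure D5:**
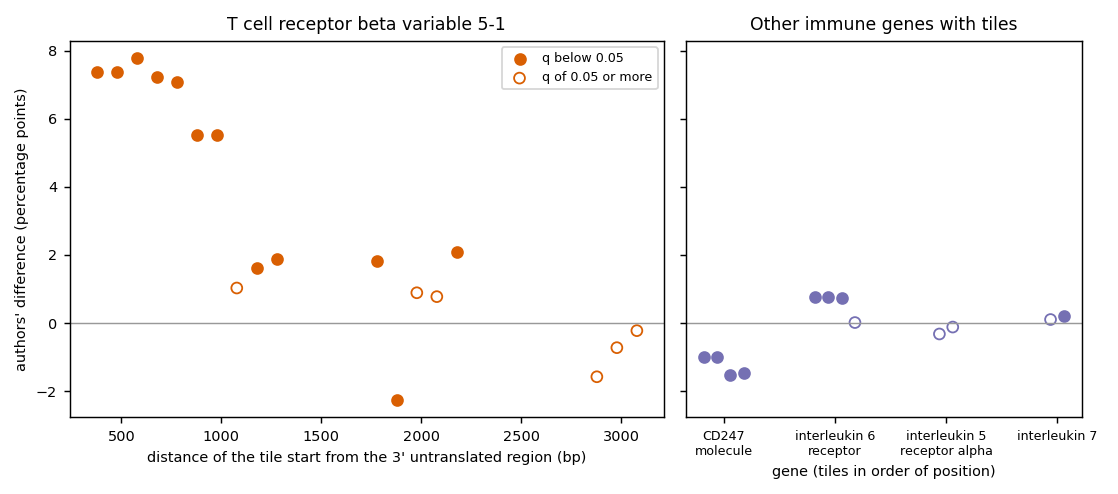
Authors' difference in percentage points (vertical axis) of the 30 immune tiles; left, T cell receptor beta variable 5-1 by distance of the tile start from its 3′ untranslated region in bp, right, the tiles of the 4 other genes in order of position. Filled symbols have q below 0.05. The 7 tiles nearest to the T cell receptor segment stand at 5.53 to 7.79 points and the other genes stay within 2 points of 0.

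Genes taken as markers of leukocytes were looked up on the chromosomes used here, which leave out 6 of the site table and 3 of the tile table. Of a list of 29 such genes, 3 had a site within 10 kb, with 13 sites, and 1 had tiles. The pan-leukocyte phosphatase PTPRC and the T cell markers CD3D, CD3E, CD4 and CD8A, looked up by full name, were not among them. The 3 site genes were BANK1, membrane spanning 4-domains A1, the CD20 antigen of B cells, and a gene named lysozyme, which in cattle belongs to a family of similar genes. BANK1 is the called site described above. The list was chosen with earlier results of these data known, so its presence here is not a separate observation. Membrane spanning 4-domains A1 had 5 promoter sites from -9.72 to 8.49 points with q of 0.436 or more, 3 negative and 2 positive in the authors' deposited table. Lysozyme had 7 sites from -16.5 to 12 points with q of 0.0693 or more, 6 negative and 1 positive in the authors' deposited table. Of the 13 sites of this list 1 was called and 3 had an unadjusted p below 0.05 in the authors' test. These 3 were the BANK1 site and the lysozyme sites at -16.5 and 12 points. They are too few to read against the 3.19% and 19.5% of sites near other named genes. IKAROS family zinc finger 1, a transcription factor of lymphocyte development that the zinc finger wording keeps out of the 41 genes, had 4 overlapping intronic tiles on chromosome 4. They were all positive at 2.98 to 4.97 points, with q between 3.39e-10 and 6.45e-05 in the authors' deposited table.

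Markers of other cell types were looked up in the same way. Of 10 epithelial genes 2 had sites (3 sites, -5.16 to 1.04 points), and of 10 Sertoli and Leydig cell genes 1 had a site (2.18 points). Of 26 germ cell and sperm genes 3 had sites (4 sites, -5.61 to 1.07 points) and 1 of these, spermatogenesis associated 22, also had 4 tiles (0.51 to 1.03 points). Of the 8 sites of these 3 lists 0 were called and 1 had an unadjusted p below 0.05 in the authors' test, too few to read against the 3.19% and 19.5% of sites near other named genes. How far any of these cells bears on the immune values was not tested.

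Other genes of immune signalling were looked up as well. Of 96 kinases, adaptors and transcription factors that act downstream of the receptors, 10 had a site within 10 kb (11 sites, of which nuclear factor of activated T cells 3 is also counted above) and 2 had tiles (5 tiles). Called were 0 sites and 0 tiles, and 2 of the 11 sites and 2 of the 5 tiles had an unadjusted p below 0.05 in the authors' test. Near other named genes 3.19% of sites were called, and 19.5% of sites and 53.4% of tiles had such a p, so these counts do not set the list apart. The sites ranged from -7.87 points for EBF transcription factor 1, a B cell lineage factor, to 3.85 points for protein kinase C theta, a T cell kinase, with 9 negative and 2 positive in the authors' deposited table. Nuclear factor kappa B subunit 1, a central inflammatory transcription factor, had sites at -5.06 points (q = 0.0845) and -4.97 points (q = 0.416), per the authors' deposited table.

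The 10 kb limit leaves out some immune loci. Just inside it, interleukin 1 receptor like 1 lay at 9878 bp with -3.61 points, and just outside it CD44 lay at 10033 bp with 2.90 points and C-C motif chemokine receptor 3 at 10396 bp with -5.06 points in the authors' deposited table. A further 59 sites named an immune gene as closest at more than 10 kb, and 2 of these were called, where 5.94% of all listed sites were. Both had T cell receptor alpha variable 24 as closest gene, at -19.1 points 23023 bp away and 21.5 points 42728 bp away, each with q = 0.0424 in the authors' deposited table. At a q below 0.05 whatever the difference there were 4 of the 59 sites, where 8.11% of all listed sites passed. Besides the called sites, these were 1 each of interferon kappa and interferon gamma. Interferon kappa had a site 15707 bp away at 6.45 points (q = 0.0400), per the authors' deposited table. Interferon gamma, the main T cell interferon, had a site 226969 bp away at 8.25 points (q = 0.0322), per the authors' deposited table.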

How the data were processed

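Sperm DNA of 12 bulls was profiled by EM-seq per the labels' protocols. Trimmomatic, Bismark and methylKit and the cattle build ARS-UCD1.2 were used, per the submitters' processing notes, which give neither version nor setting. Each table holds, per the file headers, the authors' p-values and q-values and a signed difference, treated here as a score in percentage points that the authors deposited. The adjustment behind q is not given in the sources used here, and q can lie below p. Sites are single CpG positions on 1 strand. Tiles are 500 bp windows starting every 100 bp, so neighbours share CpGs.

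The authors' distance runs from the start of a locus to the nearest edge of the feature, inside or outside, which was checked at every locus. A locus deep inside a long intron can therefore exceed 10 kb. Of the immune sites inside a feature, 2 were left out for that reason. Loci whose closest feature was a CpG island, or that named a transcript alone, had no gene name and could not be members.

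Members, lists and roles were chosen with earlier results of these data known. Named genes were those with a call, the 10 with most sites, the 10 with the largest uncalled difference and all with tiles, and the other members were then added. Interferon-induced genes were kept apart from ligands, which departs from the written order of the roles. Of 12 genes with an NCBI number 11 matched the RefSeq gene table (ARS-UCD2.0), used only for names. Markers were matched by full name. Chromosomes 2, 3, 4, 12, 23 and 27 of the site table and 12, 23 and 27 of the tile table were not analysed here, so 26 of the 30 immune tiles lay where no sites could be compared. The scripts, in Python 3.11.15 with pandas 2.3.3, were tested on simulated data.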

Additional observations from a re-analysis of the deposited data

How the results depend on the processing

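The counts were small, and each rests on single CpG sites. The 3 called sites and 3 genes stayed within 1.5 times of these counts at 5 points, at 20 points, at q below 0.01, with word boundaries and with Benjamini-Hochberg adjustment over the listed loci. Inside a feature only, 1 of 28 sites was called, from 1 gene, and it was negative (100%). Near other named genes 56 of 2213 sites inside a feature were called. Within 50 kb 5 of 104 sites were called, 60.0% of the 5 negative. Over all listed sites, at any distance, 5.94% were called, and the share for other genes within 50 kb was not analysed here. The negative share, 66.7% in the report, was 75% at 5 points and 50% at 20 points. Called tiles numbered 0 under these alternatives except at 5 points, where 7 of 30 were called, all of T cell receptor beta variable 5-1. These 7 overlap as 1 stretch. Of the 1784 tiles near any gene, 24 reached 5 points in the positive direction and 209 in the negative direction. Of the alternatives chosen after seeing the data, dropping the difference threshold gave 20 tiles and a negative share of 75% of 4 sites, and leaving out CD163 molecule-like 1 gave a negative share of 50% of 2 sites. These changes follow from which loci each setting admits. No bull could be left out in turn, no coverage minimum could be changed and the depth is unknown. No paired analysis was possible because the groups share no replicate numbers and the tables hold no per-sample values.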
